A study of Mus musculus with 4 samples.

Results

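The genes described here are 10 members of the cell death machinery: Bcl2, Bcl2l1, Mcl1, Bax, Bad, Bid, Bbc3, Pmaip1, Bcl2l11 and Trp53inp1. They were taken by gene name from the authors' deposited table, and they make up 10 of 26265 named genes and 14 of 39429 probes on the array. The arrays were 1-colour Agilent mouse arrays hybridised with RNA of isolated pancreatic islets, the clusters of hormone-secreting cells of the pancreas. The GKA group (2 samples) was kept for 24 h with 30 µM of a glucokinase activator, a small molecule that makes the enzyme which starts glucose use in beta cells work faster, and the vehicle group (2 samples) for the same time with its solvent, DMSO. Every sample came from C57BL/6 mice, 8 weeks old, with no genetic change named, and was cultured in RPMI1640 medium at 5.6 mM glucose. Nothing in the labels tells whether the samples of a group were separate mice, pools or cultures, so each p-value reflects only how these 4 samples varied, and that variation may be technical.

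The BCL2 family decides whether the outer membrane of the mitochondrion is opened during apoptosis. Antiapoptotic members (Bcl2, Bcl2l1, Mcl1) hold back the pore formers (Bax and its relative Bak1), and the BH3-only members (Bad, Bid, Bbc3, Pmaip1, Bcl2l11) bind the antiapoptotic members or activate the pore formers. Bbc3 and Pmaip1 are classical targets of p53, and Trp53inp1 is a p53-induced nuclear protein that takes part in the stress response. In beta cells these genes are known for their part in death under endoplasmic reticulum stress and immune attack, and Bad is also known to bind glucokinase.

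A match by symbol in the RefSeq promoter table (assembly GRCm38.p6) was found for 8 of the 10 genes, with 14 start sites. Pmaip1 and Trp53inp1 were not matched. The 250 bases before each start were searched on both strands for the p53 half-site (by name), the FOXO site GTAAACA, the E-box CACGTG and the cyclic AMP response element TGACGTCA, none of which overlapped another in these windows. The sequences below are shown because Bid and Bbc3 are the matched genes that passed the test described next, the first with none of these motifs and the second with a FOXO site, while Bax and Bcl2l11 hold motifs and did not pass. Capitals mark the motif, all are written 5′ to 3′ on the strand of the gene, and the last base lies next to the annotated start.

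Bid, chr6:120916825-120917074, minus strand: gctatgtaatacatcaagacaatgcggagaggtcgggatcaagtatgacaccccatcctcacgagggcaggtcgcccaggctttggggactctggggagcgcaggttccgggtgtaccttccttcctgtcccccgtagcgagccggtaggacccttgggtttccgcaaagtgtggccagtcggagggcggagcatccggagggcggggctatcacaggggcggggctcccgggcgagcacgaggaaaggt
Bbc3, chr7:16310011-16310260, plus strand: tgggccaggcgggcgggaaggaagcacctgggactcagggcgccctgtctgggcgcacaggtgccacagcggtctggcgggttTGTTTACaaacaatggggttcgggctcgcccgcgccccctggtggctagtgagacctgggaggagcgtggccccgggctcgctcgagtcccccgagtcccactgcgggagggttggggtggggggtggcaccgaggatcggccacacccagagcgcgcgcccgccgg
Bax, chr7:45466899-45467148, minus strand: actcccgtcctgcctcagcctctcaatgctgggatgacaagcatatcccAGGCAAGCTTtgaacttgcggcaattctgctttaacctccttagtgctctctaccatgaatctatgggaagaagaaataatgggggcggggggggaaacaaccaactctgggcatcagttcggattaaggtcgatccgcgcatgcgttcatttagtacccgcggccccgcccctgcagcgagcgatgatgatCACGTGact
Bcl2l11, chr2:128125788-128126037, plus strand: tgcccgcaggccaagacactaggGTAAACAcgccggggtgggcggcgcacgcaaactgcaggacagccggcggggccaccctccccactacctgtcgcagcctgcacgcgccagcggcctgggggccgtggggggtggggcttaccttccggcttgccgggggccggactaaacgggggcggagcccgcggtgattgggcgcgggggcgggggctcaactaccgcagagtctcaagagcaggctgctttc

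In Bbc3 the FOXO site began 167 bases before the start, and in Bcl2l11 it began 227 bases before. The Bax window held a p53 half-site 201 bases and an E-box 9 bases before the start. Another start of Bbc3 had an E-box 64 bases before it. The p53 half-site was held by 1 of the 14 windows of these genes, the FOXO site by 2, the E-box by 2 and the cyclic AMP response element by 0, against 7.13%, 3.17%, 6.02% and 1.55% of all 32851 promoter windows in the table. A match describes letters in this window only. Probe positions below are those of build mm9 in the authors' deposited table, a different build from the promoters, and exon annotation of that build was not used here.

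Of the 10 genes, Bid, Bbc3 and Trp53inp1 fell with GKA, and none passed the test in the other direction. The other 7 did not pass. Each of the 14 probes was well above background on all 4 arrays, so all 10 genes entered the test on their own signal. Levels are log2 intensities minus the 75th percentile of the array, and a level says nothing about another gene's, since probes differ in brightness. The test was limma, with p-values adjusted by Benjamini-Hochberg over 17178 genes and called below 0.05. The 3 genes that fell stand beside a background of 8.01% of all genes tested that were lower, and the count of 0 that were higher stands beside 9.11%. At an unadjusted p under 0.05, 4 of the 10 genes were lower, against 17.9% of all genes tested, and 0 were higher, against 18.2%. By sign alone, 7 of the 10 lay below 0, against 51.4% of all genes, and the median log2 fold change was -0.15 for the 10 genes and -0.01 for all genes tested. In whole islets, fewer cells of a type and less RNA per cell cannot be told apart.

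**Figure D1:**
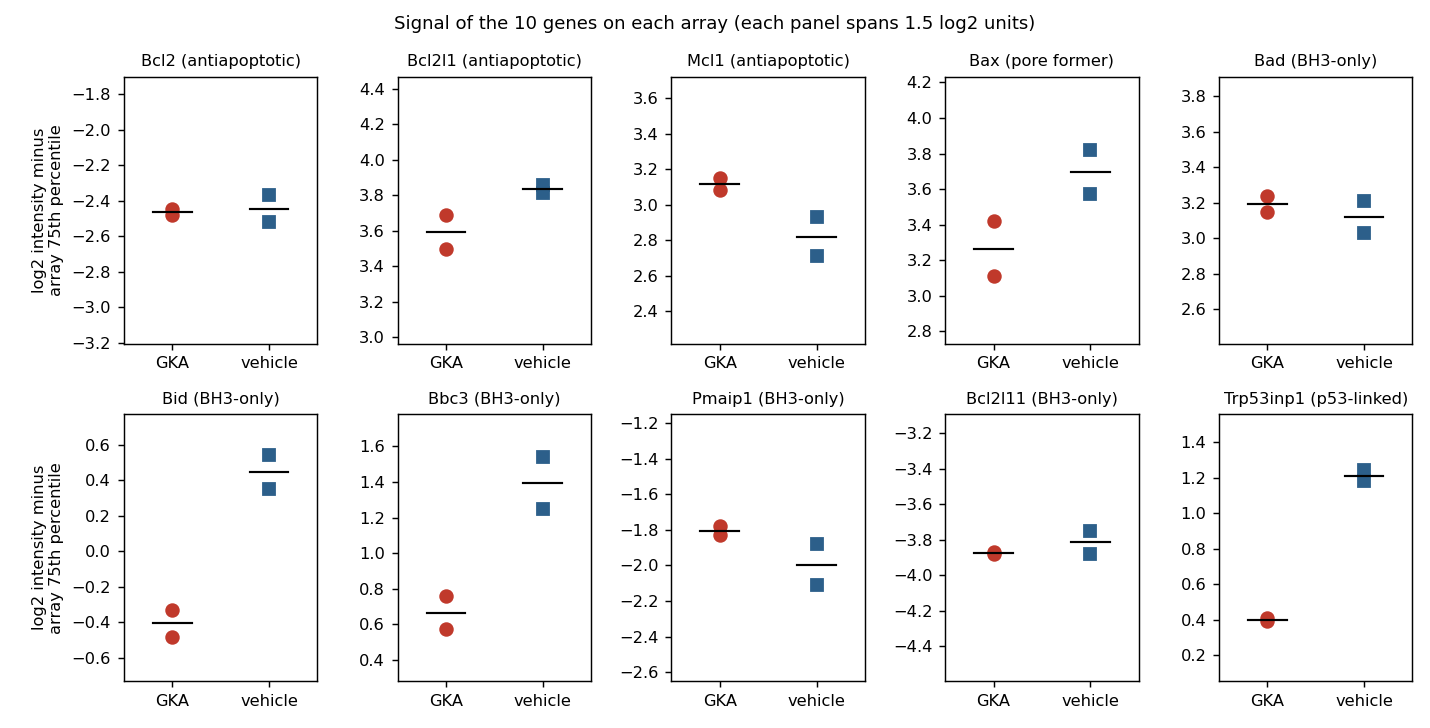
Log2 intensity of each gene minus the 75th percentile of its array, for 2 GKA arrays (circles) and 2 vehicle arrays (squares), with the group mean as a line; every panel spans the same number of log2 units. Bid, Bbc3 and Trp53inp1 lie lower on both GKA arrays than on both vehicle arrays by a distance larger than the spread within either group, while the Bcl2, Bad and Bcl2l11 points of the groups overlap.

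The antiapoptotic genes did not pass the test. Bcl2, the founding member of the family, had log2 levels of -2.45 and -2.48 on the GKA arrays, against -2.37 and -2.52 on the vehicle arrays (chromosome 1, 108608970 to 108609029). The groups overlapped, and the log2 fold change was -0.02 ± 0.12 (SE; limma adjusted p = 0.94; 95% interval -0.32 to 0.29). In the authors' deposited table its group intensities were 104.8 with GKA and 138.4 with vehicle.

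Bcl2l1, which encodes BCL-XL, had levels of 3.69 and 3.50 with GKA and 3.86 and 3.81 with vehicle (chromosome 2, 152606404 to 152606463). Both GKA arrays were lower, but the difference of -0.24 ± 0.12 did not pass (limma adjusted p = 0.228; 95% interval -0.55 to 0.07). A second Bcl2l1 probe, 48781 bases away, read -1.57 and -1.65 with GKA, against -1.23 and -1.14 with vehicle, a difference of -0.42 ± 0.12 (limma adjusted p = 0.0641 over all probes). It too was lower on both GKA arrays.

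Mcl1, a short-lived inhibitor of BAX and BAK, read 3.08 and 3.15 with GKA and 2.71 and 2.93 with vehicle (chromosome 3, 95466855 to 95466914). It was the antiapoptotic gene with both GKA arrays above both vehicle arrays, by 0.30 ± 0.13 (limma adjusted p = 0.169; 95% interval -0.03 to 0.63). Its second probe, 1312 bases away, gave 0.56 ± 0.20 (limma adjusted p = 0.118 over all probes). Without scaling, or scaled on the E1A spike-in spots, the first value lay below 0, at -0.09 and -0.30.

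Bax, the pore former, read 3.42 and 3.11 with GKA, against 3.82 and 3.57 with vehicle (chromosome 7, 52717122 to 52717181). Both GKA arrays lay below both vehicle arrays, and the log2 fold change was -0.43 ± 0.16 (95% interval -0.84 to -0.02). The gap between replicates was 0.31 in the GKA group and 0.25 in the vehicle group. At an unadjusted p of 0.0432 and an adjusted p of 0.126 in limma, Bax did not pass. It did pass under normexp background correction, at -0.50 with the 75th percentile (limma adjusted p = 0.0333) and at -0.46 with quantile normalization (limma adjusted p = 0.0453). Bax also passed without scaling (-0.82) and with spike-in scaling (-1.03), where 44.6% and 39.6% of all genes tested were lower. The antiapoptotic Bcl2l1 passed under both of those settings too (-0.62 and -0.83). Bcl2 (-0.40) and Bcl2l11 (-0.44) passed without scaling.

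Among the 5 BH3-only genes, Bid and Bbc3 fell and the other 3 did not pass. Bid, which caspase-8 cleaves to carry a death receptor signal to mitochondria, read -0.33 and -0.48 with GKA, against 0.35 and 0.54 with vehicle (chromosome 6, 120843464 to 120843523). In intensity units this was 442 and 428 on the GKA arrays and 957 and 1100 on the vehicle arrays. The groups lay well apart, since the replicates of a group differed by 0.15 (GKA) and 0.19 (vehicle). The log2 fold change was -0.86 ± 0.13, a level 0.553 times that with vehicle (limma adjusted p = 0.0185; 95% interval -1.19 to -0.52). Without GKA replicate 1 it was -0.93 (limma adjusted p = 0.0659), and without GKA replicate 2 it was -0.78 (limma adjusted p = 0.0904), so the direction held and the call was lost.

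Bbc3, the BH3-only protein PUMA, read 0.76 and 0.57 with GKA, against 1.54 and 1.25 with vehicle (chromosome 7, 16903403 to 16903462). Its intensities were 944 and 886 with GKA and 2180 and 1790 with vehicle. No overlap was seen, and the log2 fold change was -0.73 ± 0.15, or 0.604 times the vehicle level (limma adjusted p = 0.0352; 95% interval -1.12 to -0.34). The call was lost without vehicle replicate 1 (-0.58, limma adjusted p = 0.09), without GKA replicate 1 (-0.83, limma adjusted p = 0.094) and without GKA replicate 2 (-0.63, limma adjusted p = 0.146). It held without vehicle replicate 2.

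Bad read 3.24 and 3.15 with GKA and 3.21 and 3.03 with vehicle, overlapping groups with a log2 fold change of 0.08 ± 0.13 (chromosome 19, 7026323 to 7026382; limma adjusted p = 0.695; 95% interval -0.24 to 0.39). Its second probe read -0.87 and -0.91 with GKA, against -0.59 and -0.75 with vehicle, a difference of -0.22 ± 0.12 (limma adjusted p = 0.248 over all probes). The ends of that second probe lie 486 bases apart on the genome, where most probes of these genes span 60. The direction of Bad therefore differed between its probes, and the first value turned negative when unscaled (-0.31) or scaled on spike-ins (-0.52).

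Pmaip1, the BH3-only protein NOXA that binds MCL1, read -1.83 and -1.78 with GKA and -2.11 and -1.88 with vehicle. Both GKA arrays were higher, by 0.19 ± 0.13 (limma adjusted p = 0.349; 95% interval -0.14 to 0.52), but the value turned negative when unscaled (-0.20) or scaled on spike-ins (-0.41). Bcl2l11, which encodes BIM, read -3.87 and -3.88 with GKA, against -3.75 and -3.88 with vehicle. It overlapped between groups, with a log2 fold change of -0.05 ± 0.12 (limma adjusted p = 0.772; 95% interval -0.35 to 0.24). The Bcl2l11 probe was dim, at 38.2 and 40.6 intensity units with GKA and 55.7 and 51.2 with vehicle, and its ends lie 11096 bases apart on chromosome 2 (127972893 to 127983988). With normexp and the 75th percentile the value lay above 0 for Bcl2 (0.05) and for Bcl2l11 (0.12).

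Trp53inp1 read 0.39 and 0.41 with GKA, against 1.18 and 1.24 with vehicle (chromosome 4, 11101174 to 11101233). Replicates differed by 0.02 in the GKA group and 0.06 in the vehicle group, and the intensities were 730 and 793 with GKA and 1700 and 1790 with vehicle. It fell by 0.81 on the log2 scale, to 0.569 times the vehicle level (SE 0.11; limma adjusted p = 0.0142; 95% interval -1.09 to -0.53). Its second probe, 8644 bases away on the same gene, overlapped between groups, at -1.19 and -1.62 with GKA and -1.11 and -1.38 with vehicle, a difference of -0.16 ± 0.19 (limma adjusted p = 0.587 over all probes). The mean of the probes gave -0.49 (limma adjusted p = 0.058), so the call rests on the brighter probe. Without GKA replicate 1 the brighter probe gave -0.81 (limma adjusted p = 0.0696), and without GKA replicate 2 it gave -0.82 (limma adjusted p = 0.0735).

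**Figure D2:**
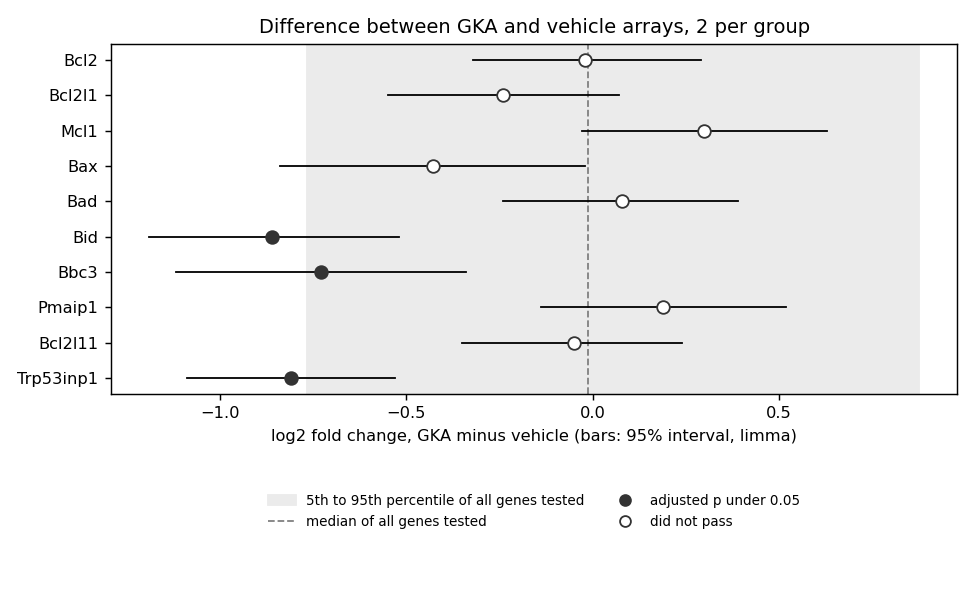
Log2 fold change of each gene, GKA minus vehicle, with its 95% interval in limma; filled points have an adjusted p under 0.05, the grey band is the 5th to 95th percentile of all genes tested (-0.77 to 0.88), and the dashed line is their median. Bid and Trp53inp1 lie below the band, Bbc3 lies inside its lower edge at -0.73, and the other 7 lie within it.

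As a plain count of arrays, 5 of the 10 genes had both GKA arrays below both vehicle arrays, against 33.5% of all genes tested, and 2 had both above, against 32.4%. The 5 were Bcl2l1, Bax, Bid, Bbc3 and Trp53inp1, and the 2 were Mcl1 and Pmaip1. These shares of all genes are high, so a lack of overlap on 4 arrays is common here. Each probe fitted by itself gave a background of 7.99% lower among 22139 probes, and the same 3 genes were lower there on their brighter probe.

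The authors' deposited table gives 1 ratio of GKA over control for each probe, from unscaled intensities. Ratios there were 0.422 for Bid, 0.46 for Bbc3 and 0.436 for the brighter Trp53inp1 probe, beside a median ratio of 0.841 there for all probes. For the dimmer Trp53inp1 probe the authors' deposited table has 0.688. Bax stood at 0.567 and Bcl2l1 at 0.649 and 0.571 in the authors' deposited table, and the Mcl1 probes at 0.941 and 1.13.

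Where a gene had a pair of probes, the log2 distance between them was also read on each array. For Trp53inp1 the brighter probe exceeded the dimmer by 1.58 and 2.03 on the GKA arrays, against 2.30 and 2.62 on the vehicle arrays, a difference of -0.66. The distance changed by 0.18 in Bcl2l1, by -0.26 in Mcl1 and by 0.30 in Bad. In none of the 4 genes did the groups overlap in this distance, but a lack of overlap is common on these arrays and the differences were not tested.

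**Figure D3:**
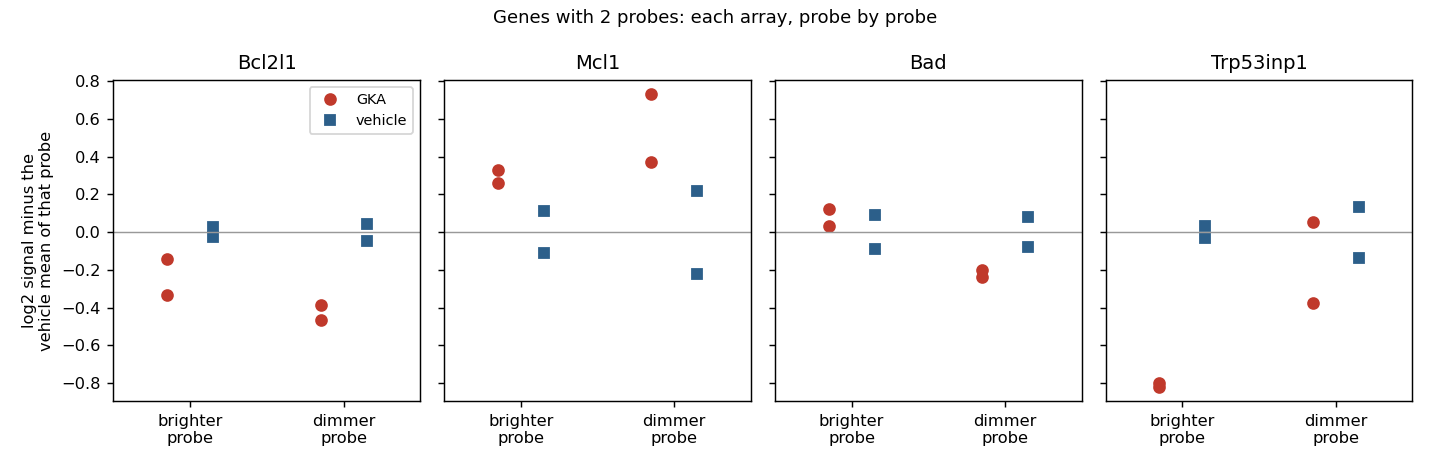
Log2 signal of the brighter and dimmer probe of Bcl2l1, Mcl1, Bad and Trp53inp1 on each GKA array (circles) and vehicle array (squares), each probe set to its vehicle mean. The GKA points of Trp53inp1 sit near -0.8 on the brighter probe and on either side of the vehicle points' lower value on the dimmer probe, and the Bad probes part in direction.

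Profiles over the 4 arrays were compared by Euclidean distance of log2 values centred on each gene's mean, a description with no test. Nearest to Bid were Nuak1 (distance 0.014) and AI414108 (0.058), nearest to Bbc3 were Gm10307, now Eef1a1-ps2 (0.033), and Amdhd2 (0.035), and nearest to Trp53inp1 were Gm13420 (0.014) and Adh1 (0.045). Within the set, Bid and Trp53inp1 were each other's nearest (0.16), as were Bcl2 and Bcl2l11 (0.04) and Mcl1 and Pmaip1 (0.11).

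The rest of the pathway was read from 5 lists that leave out the 10 genes. Of 20 tested genes listed as other BCL2 family members and their partners, 2 were higher, 2 lower and 16 did not pass, with a median log2 fold change of 0.06. Those are 10% in each direction, near the 9.11% and 8.01% of all genes tested that were higher and lower. Bok, a relative of Bax, fell to -0.56 and -0.93 with GKA, against 0.32 and -0.05 with vehicle, by 0.88 on the log2 scale (limma adjusted p = 0.0392). Bcl2l14, on a dim probe, had a log2 fold change of -0.97 (limma adjusted p = 0.0411), which shrank to -0.14 and -0.35 under the normexp settings with the 75th percentile and with quantiles. Bag3, a co-chaperone that holds BCL2 family proteins, rose by 0.75 (limma adjusted p = 0.0227), and Moap1, a partner of BAX, by 0.45 (limma adjusted p = 0.0486), the last of which lay below 0 with spike-in scaling. Bak1, the other pore former, stood at 0.74 and 0.59 with GKA and 0.82 and 0.68 with vehicle (limma adjusted p = 0.67).

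Among 50 tested genes of the p53 pathway, 6 were higher, 8 lower and 36 did not pass (median 0.01), shares of 12% and 16% beside 9.11% and 8.01% of all genes tested. Trp53 itself read -3.65 and -3.32 with GKA and -3.42 and -3.21 with vehicle, overlapping groups with a log2 fold change of -0.17 ± 0.16 (limma adjusted p = 0.493), above 0 with normexp and the 75th percentile. Mdm2, the p53 inhibitor and target, gave 0.17 (limma adjusted p = 0.335) and Cdkn1a, the cell cycle inhibitor p21, gave 0.26 (limma adjusted p = 0.408), each of them under 0 when unscaled or scaled on spike-ins. The targets Phlda3, a repressor of AKT, and Rrm2b, a ribonucleotide reductase subunit, fell with log2 fold changes of -0.90 and -0.79 (limma adjusted p = 0.0345 and 0.0158; Rrm2b -0.30 and -0.44 under the normexp settings), and Bcl6, a transcriptional repressor, with -0.91 (limma adjusted p = 0.0312). Tnfrsf23, a mouse decoy receptor for TRAIL, rose to 2.24 and 2.18 with GKA, against -0.44 and -0.22 with vehicle, a log2 fold change of 2.54 ± 0.13 (limma adjusted p = 0.00299). Ppp1r13l, an inhibitor of p53 known as iASPP, rose by 0.62 and the p53 relative Trp73 by 0.61 (limma adjusted p = 0.0435 and 0.0472).

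Downstream of the pore, 4 of 28 tested genes of the caspases and apoptosome were higher and 0 were lower in limma, with a median of 0.04. The share higher was 14.3%, beside 9.11% of all genes tested, and the count of 0 lower stands beside 8.01%. At an unadjusted p under 0.05 in limma, 7 of the 28 were higher and 1 lower, beside 18.2% and 17.9% of all genes tested. Dffb, the nuclease that cuts DNA in apoptosis, read -2.07 and -2.19 with GKA, against -3.04 and -3.30 with vehicle, a rise of 1.04 (limma adjusted p = 0.0138). Cycs, or cytochrome c, which is needed for respiration and forms the apoptosome once released, rose by 0.70 (limma adjusted p = 0.0206), and Cidea, a protein of lipid droplets and cell death, by 0.87 (limma adjusted p = 0.0389). The remaining call was Birc5, the mitotic and antiapoptotic protein survivin, at 0.63 (limma adjusted p = 0.0284), which turned to -0.14 and -0.23 under the normexp settings. Casp9, the initiator caspase of the apoptosome, read 0.51 and 0.40 with GKA and 0.95 and 0.85 with vehicle and just missed the threshold, at -0.44 (limma adjusted p = 0.0602). Apaf1, the scaffold of the apoptosome, did not pass, at -0.09 (limma adjusted p = 0.775), and was above 0 when normexp preceded 75th percentile scaling.

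In the death receptor pathway, which feeds into Bid, 2 of 25 tested genes were higher and 1 lower (median 0.03). Those are 8% and 4%, beside 9.11% and 8.01% of all genes tested. Cflar, the caspase-8 inhibitor c-FLIP, read -0.49 and -0.39 with GKA, against -1.35 and -1.19 with vehicle, a rise of 0.83 (limma adjusted p = 0.0173), and Faim2, an inhibitor of FAS signalling, rose by 0.92 (limma adjusted p = 0.0117; 0.47 and 0.26 under the normexp settings). Dapk2, a death-associated kinase, had a log2 fold change of -1.41 (limma adjusted p = 0.0217), cleared the background on 1 of 2 GKA arrays and entered the test only through the vehicle group, where it was brighter. It gave -0.15 and -0.43 under the normexp settings, and with probes required to be well above background on all 4 arrays 0 genes of this list were lower.

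Of 22 tested transcription factors listed as regulators of BH3-only and BCL2 genes, 3 were higher and 5 lower (median -0.15). Those are 13.6% and 22.7%, beside 9.11% and 8.01% of all genes tested. The higher genes include Trp73, which is also counted in the p53 pathway. Whether the listed factors act on the 10 genes in these islets was not tested. Ddit3, the endoplasmic reticulum stress factor CHOP, fell to 2.98 and 2.35 with GKA, against 4.49 and 4.44 with vehicle, a log2 fold change of -1.80 ± 0.22 (limma adjusted p = 0.0121). It still passed when any single array was left out. Mlxipl, the glucose-responsive factor ChREBP, had a log2 fold change of -1.30 (limma adjusted p = 0.025) and Myc one of -0.91 (limma adjusted p = 0.0359). The other lower genes were Stat5b and Stat5a, cytokine-activated factors, at -0.89 and -0.86 (limma adjusted p = 0.0233 and 0.0143). Crem, a cyclic AMP responsive factor, rose by 1.94 ± 0.16 (limma adjusted p = 0.00508) and Runx3 by 0.76 (limma adjusted p = 0.017; 0.54 and 0.32 under the normexp settings). Foxo3, a known regulator of Bcl2l11 and Bbc3, did not clear the background on either of the GKA arrays and entered the test only through the vehicle group. It did not pass, and its groups overlapped, at -5.60 and -5.55 with GKA and -5.57 and -5.10 with vehicle. The log2 fold change was -0.24 (limma adjusted p = 0.392), and 0.16 with normexp and the 75th percentile. The split of these lists depends on scaling: unscaled, 1 gene was higher and 8 lower among the other BCL2 family members, 1 and 22 in the p53 pathway, 1 and 10 among the caspases, 2 and 9 in the death receptor pathway, and 1 and 11 among the transcription factors. Scaled on spike-ins, the counts higher and lower were 0 and 6, 1 and 22, 0 and 11, 0 and 8, and 1 and 12 in the same order of lists. Of all genes tested, 44.6% were lower unscaled and 39.6% were lower with spike-in scaling. Over the 5 lists, 32 genes passed, of which 18 still passed with the replicate block. With no filter on dim probes 2 of the 32 still passed, and 0.255% of all genes were lower there. With the mean of a gene's probes in place of the brightest, 30 still passed and 1 changed direction. Fewer of the 32 passed when any single array was left out.

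**Figure D4:**
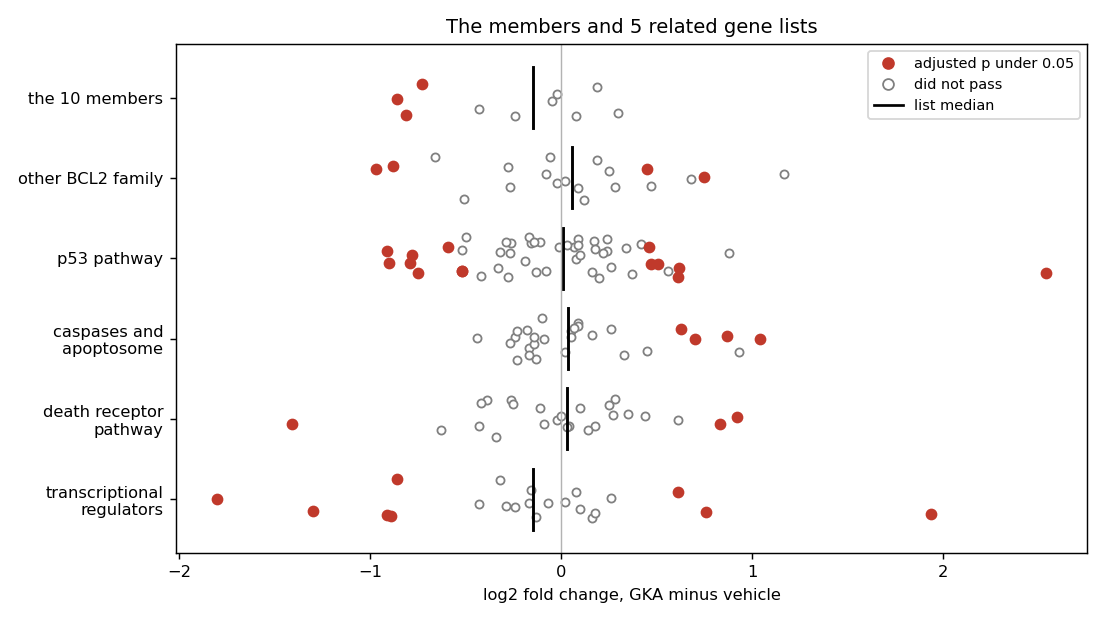
Log2 fold change, GKA minus vehicle, of the 10 genes and of each tested gene of the 5 related lists; red points have an adjusted p under 0.05 in limma, open points did not pass, and the bar is the list median. The 3 red points of the 10 genes all lie below 0, the caspase list has red points above 0 only, and the other lists have them on both sides.

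Directions are relative to the 75th percentile of each array, which was 557 and 598 on the GKA arrays, against 751 and 755 on the vehicle arrays. Between 59.7% and 63.5% of probes were well above background, and r between arrays was 0.996 within GKA and 0.995 within vehicle, against 0.979 to 0.984 between groups. All 4 arrays shared 1 slide and 1 scan, with GKA at positions 3 and 4 and vehicle at 1 and 2. Slide position and treatment cannot be told apart. Unscaled, all genes had a median of -0.40, and scaled on spike-ins they had one of -0.61. Under those settings Bid stood at -1.24 and -1.45, Bbc3 at -1.11 and -1.32, and Trp53inp1 at -1.20 and -1.41, each below the median of all genes. Scaling of this kind moves all genes of an array alike. The distance of a gene from that median therefore stayed as reported, and this adds no support.

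**Figure D5:**
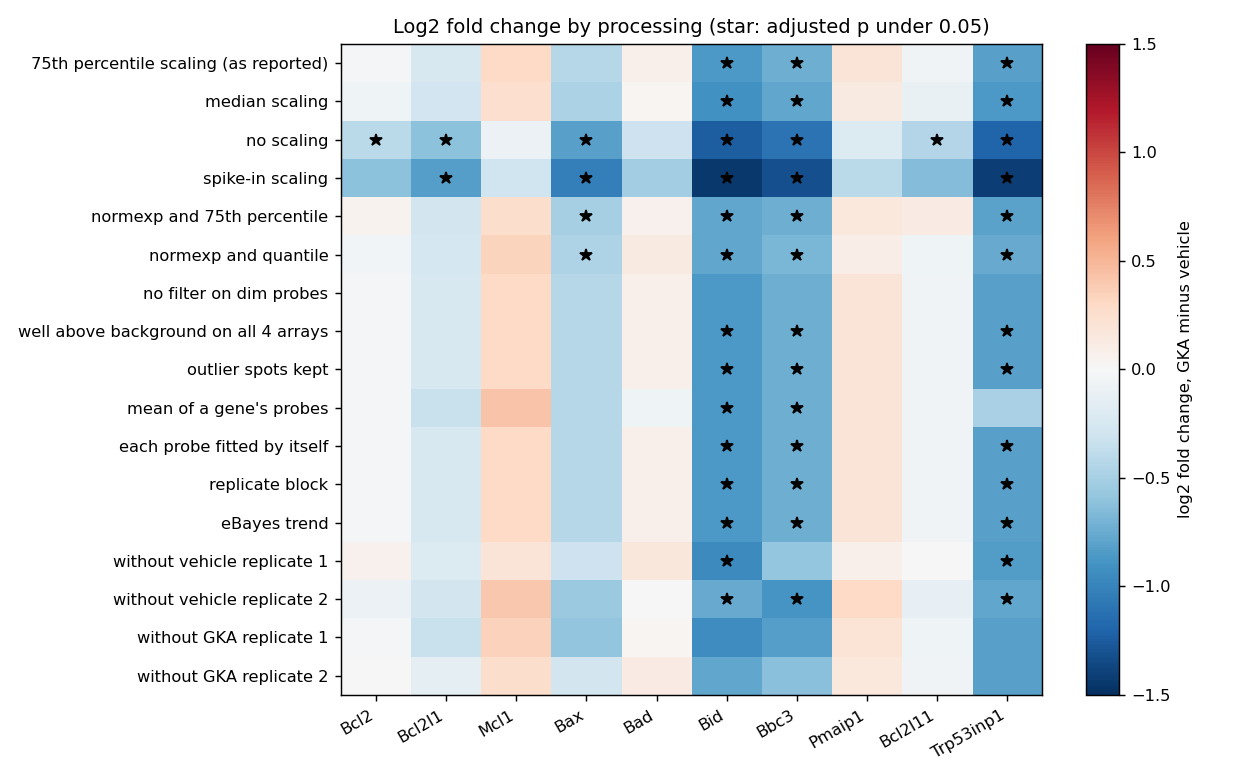
Log2 fold change of the 10 genes, GKA minus vehicle, under the reported processing and each alternative (blue lower, red higher; a star marks an adjusted p under 0.05 in limma). The columns of Bid, Bbc3 and Trp53inp1 are blue in every row, and their stars are missing in the row with no filter and in the rows without a GKA replicate, as well as without vehicle replicate 1 for Bbc3 and with the mean of probes for Trp53inp1.

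Markers of the labelled tissue were present: all 10 beta cell and all 7 alpha, delta and PP cell markers were well above background on all arrays. The summed linear level of the beta cell markers was 1450 and 1420 with GKA, against 1160 and 1150 with vehicle, and 3 of 10 (G6pc2, Pdx1 and Mafa) rose. The counts here and below come from short lists. They stand beside 9.11% of all genes tested that were higher and 8.01% that were lower. Leukocyte markers summed to 7.52 and 6.12 with GKA, against 8.75 and 7.61 with vehicle, and 3 of 9 tested fell (Ptprc, Aif1 and Lyz2). Cd68, Cd3e and Csf1r lay above 0 without passing, at 0.39, 0.36 and 0.08. Duct markers summed to 15.2 and 13.8 with GKA and 26.9 and 22.6 with vehicle, with 1 of 5 tested lower, and fibroblast markers to 4.51 and 5.03 with GKA and 6.23 and 7.80 with vehicle, with 1 of 6 lower. Endothelial markers overlapped (13.5 and 12 with GKA, 12.5 and 11.5 with vehicle), with 1 of 6 higher and 1 lower. Acinar markers summed to 4.08 and 2.79 with GKA, against 2.03 and 1.92 with vehicle, with 1 of 5 tested higher, while Cpa1, Cela2a, Cela3b, Pnlip and Prss1 did not pass the filter. These sums add probes of different brightness and serve only to compare arrays. Their part in the fall of Bid, Bbc3 and Trp53inp1 was not tested.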

How the data were processed

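The per-spot intensity is a background-subtracted, detrended value deposited by the authors, made with Agilent Feature Extraction 10.7.3.1 per the file headers (9.1 per the submitters' processing notes). The authors' deposited table adds a ratio of GKA over control per probe, and each of its group values for 39030 single-spot probes equalled the mean of the 2 arrays within 0.1%. It also supplied gene names (33697 probes named, 5732 not) and mm9 positions.

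Control spots and outlier spots were left out, spots of a probe were averaged, and log2 intensity minus the 75th percentile of the array was taken. A probe was kept if either group had it well above background on both of its arrays (22140 probes), and the brightest stood for its gene. GKA and vehicle were compared with limma 3.58.1 (lmFit, eBayes) in R 4.3.3, two-sided, with Benjamini-Hochberg adjustment. With 2 arrays in each group, the fit had 2 residual degrees of freedom, which limits precision. A total of 16 alternatives were run. Normexp (offset 50) was run on the median signal of each spot, in place of the mean signal that had been planned. Entrez identifiers matched 15853 of 17178 tested genes, and all 10 genes described, to RefSeq (GRCm38.p6).

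Tested on 20 simulations with 200 of 17178 genes changed, the fit recovered 38.8% of 2-fold and 93.9% of 4-fold changes, and 4.57% of the simulated calls were false. The simulations drew independent noise for each gene, with a spread taken from the fit itself. In the data 2941 genes passed, so these shares do not give the recovery or the false calls of the real comparison. The genes and lists were chosen with earlier results of these data known. Named beside the 10 genes were up to 3 passing genes per list and direction by size of change, Trp53, Mdm2, Cdkn1a, Apaf1, Casp9, Bak1 and Ddit3 in every case, and the 2 nearest profiles of each gene that passed. The beta cell markers G6pc2, Pdx1 and Mafa, and Foxo3, Birc5, Stat5a and Stat5b, were named after their values were seen. So were the leukocyte markers Ptprc, Aif1, Lyz2, Cd68, Cd3e and Csf1r. One further gene of this naming rule is not reported here.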

Additional observations from a re-analysis of the deposited data

How the results depend on the processing

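Bid, Bbc3 and Trp53inp1 stayed below 0 under all 16 alternatives, but not all of these could have changed the sign. Changing the filter, keeping outlier spots, fitting each probe, the replicate block and the trend left Bid at -0.86. Median, no and spike-in scaling shift all genes of an array alike. The count of the 10 genes that were lower was 3 as reported, 7 without scaling (44.6% of all genes were lower there), 5 with spike-in scaling (39.6%) and 0 with no filter on dim probes, where 26263 genes were tested and 0.255% of them were lower. Leaving out 1 array leaves 1 sample in a group, and fewer of all genes passed there, so a call lost among the 10 genes is not particular to them. The median of the 10 genes was -0.53 without scaling, -0.74 with spike-in scaling and -0.20 to -0.10 with 1 array left out. Values on the other side of 0 were 0.05 (normexp and 75th percentile), 0.06 (without vehicle replicate 1) and 0 (without GKA replicate 2) for Bcl2, -0.09 and -0.30 (no scaling, spike-in scaling) for Mcl1, -0.31, -0.52, -0.07 and -0.01 (no scaling, spike-in scaling, mean of probes, without vehicle replicate 2) for Bad, -0.20 and -0.41 (no scaling, spike-in scaling) for Pmaip1, and 0.12 and 0.01 (normexp and 75th percentile, without vehicle replicate 1) for Bcl2l11. With 1 array left out, Bcl2 ranged from -0.09 to 0.06, Bad from -0.01 to 0.17 and Bcl2l11 from -0.12 to 0.01. Over all genes, 1565 were higher and 1376 lower as reported, 1381 and 1848 with median scaling, 750 and 7654 without scaling, 342 and 6805 with spike-in scaling, 156 and 67 with no filter, 315 to 1523 and 206 to 1312 with 1 array left out (fewer samples), 2990 higher and 2055 lower with normexp and the 75th percentile, and 2094 lower with a trend in the spread. The cause of the other shifts was not tested. Mean log2 spike-in levels were 8.94 and 9.25 on the GKA arrays and 9.07 and 8.70 on the vehicle arrays. Spike-in scaling thus moves all genes of an array by a shared amount, and each of the 10 genes had an SE of 0.31 there. The fit treats that shared amount as separate noise of each gene, so calls under spike-in scaling are not reliable. The labels give same-numbered samples a shared number and no other link. The correlation of their deviations (2 pairs) was 0.0751 over 17178 genes and 0.627 over the 10 genes, and whether such samples were linked was not tested. With the replicate block 1014 genes were higher and 902 lower, with the 3 of the 10 genes still lower. Dim probes (Bcl2, Bcl2l11) limit what could be seen.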
